A study of Mus musculus with 16 samples.

Results

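The Pur genes Pura, Purb and Purg were studied in the cortex of mouse pups in an optogenetic model of early-life pain (ELP). They were found by their names among the 36930 entries of the gene table, which holds all 3 of them, and each passed the filter on low values that 21183 entries passed. The family was chosen with the genotype comparison in view, because Purg is one of the 21 candidate genes of the study. The study picked these on the same pups, sorted by abundance and P-value. The genotype differences of the 3 genes are therefore given as a description with standard errors and without P-values.

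RNAseq was done on cortices at P7, the seventh postnatal day, from 8 Avil-ChR2 and 8 ChR2-flfl pups on a C57BL6 background. Both groups carry the floxed light-gated channel ChR2 fused to td-Tomato in the Rosa26 locus. In Avil-ChR2 pups, Cre recombinase driven by advillin (Avil), a gene of sensory neurons, switches the channel on, whereas ChR2-flfl pups lack Cre, so that it stays off. The pups spent 1 h per day in blue light from P1 to P5, so that there was no group without light, and the channel was meant to act in peripheral nociceptors rather than in the cortex.

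Pur proteins (purine-rich element binding proteins) bind single-stranded DNA and RNA that is rich in purines through repeated PUR domains. Pur-alpha and Pur-beta, encoded by Pura and Purb, act as regulators of transcription, and in neurons they are found with RNA and kinesin motors in granules that carry mRNA into dendrites. Pura is needed for postnatal brain development in mice, and mutations of the human gene cause a neurodevelopmental syndrome. Pur-gamma, encoded by Purg, is the least studied member.

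The 3 genes lie on different chromosomes of GRCm38. Purg covers 33385614 to 33417472 on the plus strand of chromosome 8 and Purb 6467599 to 6476076 on the minus strand of chromosome 11. In the GENCODE M21 annotation the coding parts are of similar length, with 963 bases in Pura, 972 in Purb and 975 or 1050 in the 2 transcripts of Purg. The non-coding parts differ widely. The longest Pura transcript has 4994 non-coding bases in 2 exons, and the single exon of Purb has 7347. The Purg transcript with 2 exons, Purg-202, has 820 such bases, and the transcript with 1 exon, Purg-201, has 14. The table gives 1 value per gene, so that the transcripts of Purg could not be told apart.

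To see whether reads of the family could be mixed up, all runs of 50 bases, the shortest read kept, were compared. None of the 1926 runs of Purg and none of the 5908 of Pura occurred in another gene. Of the 8270 runs of Purb, 241 (2.91%) were shared with Gm11973 or Gm22123, which are not family members, and none with Pura or Purg.

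Purg and the next entry, Wrn, did not overlap. Wrn, a RecQ DNA helicase that is mutated in Werner syndrome, covers 33234372 to 33385545 on the minus strand, so that both genes start next to each other and are read in opposite directions. Only 68 bases lie between the 2 ranges. This matters for the counts, because entries inside the range of another entry mostly had no reads, and how reads of such entries were shared is not stated in the sources used here. Of 5866 entries that lie inside a longer entry, 94.4% had no reads in any pup, against 13.6% of 22239 entries that overlap no other entry. The kinds of RNA in these 2 sets were not compared. Examples are the microglia gene P2ry12, which lies inside Med12l, and near Purg the entries Smim18 and Gm26632, which lie inside Gtf2e2 and Rbpms. Purg, Pura and Purb each overlapped 0 other entries. The libraries were made with a stranded kit, but it is not stated in the sources used here whether the counting used the strand. If it did not, reads of Gm11973, which is antisense to Purb and not an entry, would count for Purb.

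The labels were checked first. Avil was 1.07 ± 0.199 normalized reads (CPM, reads of a gene relative to all reads of a pup, after TMM scaling) in ChR2-flfl and 39.7 ± 2.89 in Avil-ChR2 cortices (SD, n = 8 each), without overlap, which matches the genotype labels. Ddx3y, a gene of the Y chromosome, was 50.7 to 73.4 CPM in 8 pups and 1.71 to 2.57 in the other 8. It went against the labelled sex in 1 pup, Avil-ChR2 replicate 4, which the sample label calls female and Additional file 2 calls male, and against Additional file 2 in 0 pups. Results by sex are therefore given with both sources. Xist, the RNA that coats the inactive X chromosome, had values in only 2 pups, up to 571 CPM, whereas its antisense gene Tsix, whose range includes Xist, was at 242 to 932 CPM in the 8 pups with low Ddx3y and at 0.166 to 0.660 in the others.

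The reads per pup lay between 30549126 and 48711134, with the lowest value in ChR2-flfl replicate 3. Purg was covered by 7349 to 18157 reads per pup, Purb by 14957 to 25593 and Pura by 1704 to 3321, so that the counting error was smaller than the spread between pups. The pups of a group are separate animals, and the spread between them was used as the error. The litter of each pup was not given in the labels.

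All 3 genes were expressed in P7 cortex. Purb had the highest CPM, above 98.8% of the genes that passed the filter by its mean log2 value, followed by Purg with 96.6% and Pura with 80.4%. Levels between genes can only be compared per length. Per kb of the longest annotated transcript, Purg was highest with 158 ± 29.4 CPM in ChR2-flfl and 123 ± 7.00 in Avil-ChR2 cortices. Purb followed with 58.6 ± 4.18 and 57.4 ± 2.66, and Pura was lowest with 10.2 ± 0.660 and 9.40 ± 0.478 (SD, n = 8 each). These ranges do not overlap between the genes, but the order of Purg and Purb rests on the length used. Per kb of the genomic range, Purb was highest with 57.5 and 56.4 CPM, and Purg had 8.89 and 6.93 because its range includes a long intron. It is not stated in the sources used here whether reads in introns were counted. Pura was lowest on both scales, with 5.45 and 5.01 CPM per kb of genomic range.

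Purg was lower in Avil-ChR2 than in ChR2-flfl cortices and was the member with the largest difference. In ChR2-flfl pups, Purg was between 234 and 374 CPM with a median of 267, and in Avil-ChR2 pups between 196 and 239 with a median of 224. In order of replicates 1 to 8, the ChR2-flfl values were 374, 252, 238, 280, 234, 277, 353 and 256 CPM. The Avil-ChR2 values were 216, 225, 227, 215, 222, 196, 226 and 239 CPM. ChR2-flfl replicates 1 and 7 stood above all other pups, and of the Avil-ChR2 pups only replicate 8 reached into the range of the controls. Hence 7 of 8 Avil-ChR2 values lay under all values of the controls, and 6 of 8 control values over all values of Avil-ChR2. Groups without any overlap were seen for 0.0283% of the genes tested (6 of 21183), and Purg is not one of them.

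The means of Purg were 283 ± 52.7 CPM in ChR2-flfl and 221 ± 12.6 CPM in Avil-ChR2 cortices (SD, n = 8 each). This is a log2 difference of -0.34 ± 0.081 (SE), or a change of -21.1% in the geometric mean. It was -0.22 ± 0.083 (SE) with a covariate for the dependence of the values on transcript length in each pup. Of the 15137 genes whose mean log2 value was 0 or more, 61 had a log2 difference as low as that of Purg or lower. Because Purg was chosen on this comparison in these pups, its rank is a description and no test. The median log2 difference of all genes tested was 0.0020. In RNA of whole cortex, fewer cells of a type and less RNA per cell cannot be told apart.

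The control pups were spread more widely in Purg. On the log2 scale the SD was 0.25 in ChR2-flfl and 0.084 in Avil-ChR2 pups, a ratio of 3.02. Of the same 15137 genes, 98.7% had a smaller ratio, and their median ratio was 1.14. The ratio rests on ChR2-flfl replicates 1 and 7, since the other 6 controls had an SD of 0.11 and a ratio of 1.29, which was larger than that of 68.9% of the genes. A wider spread in the controls was also seen in 16 of 17 other candidates that were lower in Avil-ChR2, with a median ratio of 2.30, for example in Slc8a1 with 4.04 and Grin2b with 2.48. These candidates were chosen on the same pups. Their mean was also highest in ChR2-flfl replicates 1 and 7, at 0.26 and 0.17 above the genotype mean on the log2 scale. Their ratios without these 2 pups are not given here. Without ChR2-flfl replicate 1, the log2 difference of Purg was -0.28, and without ChR2-flfl replicate 7 it was -0.29. The difference without both pups is not given here.

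Pura, the member with the best known role in neurons, was also lower in Avil-ChR2 cortices, by a smaller amount. The ChR2-flfl values of replicates 1 to 8 were 60.3, 59.2, 55.1, 62.8, 59.4, 61.2, 69.0 and 60.4 CPM. The Avil-ChR2 values were 55.5, 55.6, 57.0, 55.7, 59.6, 58.0, 49.9 and 56.4 CPM. The groups overlapped, since 1 of 8 Avil-ChR2 pups was below the lowest control, but all 8 were below the mean of the controls. The highest value was that of ChR2-flfl replicate 7, which was also high in Purg, and the lowest that of Avil-ChR2 replicate 7, which was not low in Purg.

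The means of Pura were 60.9 ± 3.93 and 56.0 ± 2.85 CPM (SD, n = 8 each), with a log2 difference of -0.12 ± 0.040 (SE) and a change of -8.06%. It was -0.047 ± 0.035 (SE) with a covariate for the dependence of the values on transcript length in each pup. A log2 difference as low as this or lower was found for 828 of the 15137 genes. The SD ratio of Pura was 1.21 and thus close to the median of these genes, and it was 0.85 without ChR2-flfl replicates 1 and 7.

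Purb, the most abundant member in CPM, showed no clear genotype difference. Its values in ChR2-flfl replicates 1 to 8 were 426, 477, 484, 534, 468, 490, 531 and 492 CPM. In Avil-ChR2 pups they were 459, 465, 452, 463, 517, 495, 482 and 491 CPM. All Avil-ChR2 pups were inside the range of the controls, and 5 of 8 were below the controls' mean. The means were 488 ± 34.8 and 478 ± 22.1 CPM (SD, n = 8 each), with a log2 difference of -0.027 ± 0.041 (SE). The range of ± SE includes small changes in both directions. The SD ratio of Purb was 1.58, and 1.00 without ChR2-flfl replicates 1 and 7.

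**Figure D1:**
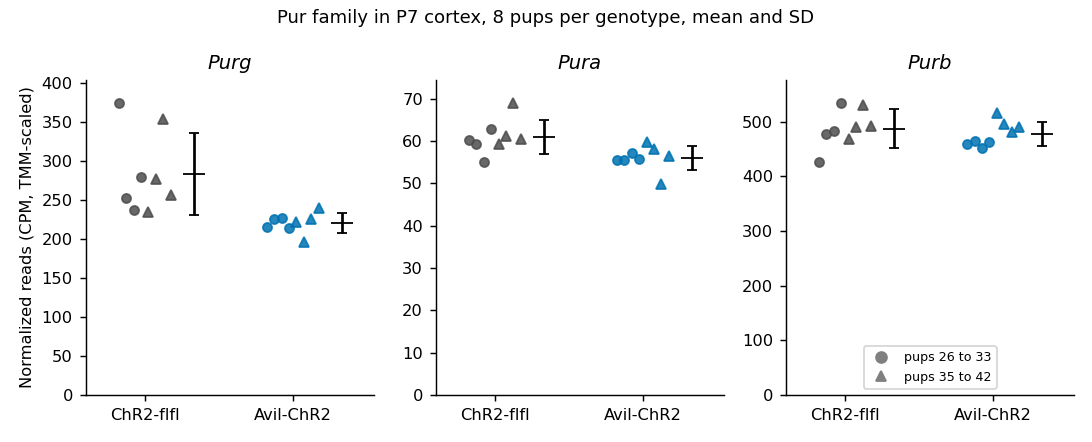
Normalized reads (CPM, linear axis from 0) of Purg, Pura and Purb in each pup by genotype, with mean and SD (n = 8) as black bars and the pup run as the symbol. Purg of ChR2-flfl pups spreads from 234 to 374 CPM and that of Avil-ChR2 pups from 196 to 239, whereas the groups of Purb cover each other.

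The genotype difference was then looked at in the runs of pups. Pups numbered 26 to 33 and pups numbered 35 to 42 hold 4 pups of each genotype each, and what the runs stand for is not given in the labels. Purg had a log2 difference of -0.35 in the first and -0.33 in the second run. For Pura it was -0.084 and -0.16, and for Purb -0.058 and 0.0036. The genotype by run interaction had adjusted P-values of 1.00 for all 3 genes in limma. Of all genes 0% passed this test, and 643 had an unadjusted P under 0.05.

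Run and sex were not used to choose the family, so they could be tested. Purb was higher in the second run by 0.079 ± 0.037 on the log2 scale (SE, limma unadjusted P = 0.0462), which did not pass the adjustment over all genes (adjusted P = 0.390). The differences between the runs were -0.013 ± 0.083 for Purg and 0.035 ± 0.040 for Pura, with limma adjusted P-values of 0.967 and 0.771. Of all genes, 0.123% passed the test for the run, and 2649 had an unadjusted P under 0.05.

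By sex, the mean of Purg in ChR2-flfl pups was 305 ± 69.6 CPM in males and 262 ± 20.3 in females (SD, n = 4 each). In Avil-ChR2 pups it was 213 ± 15.1 in 3 males and 226 ± 8.99 in 5 females by the labels. With the pup in question as a male, the means were 213 ± 12.4 and 228 ± 7.56 (SD, n = 4 each). Both pups with the highest Purg, ChR2-flfl replicates 1 and 7, were males, and the male controls also included the lowest control.

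The log2 difference between genotypes in Purg was -0.49 in males and -0.21 in females by the labels, and -0.49 and -0.19 by Additional file 2. The genotype by sex interaction of Purg was -0.28 ± 0.16 (SE, limma unadjusted P = 0.0955, adjusted P = 0.993) by the labels and -0.29 ± 0.16 (limma unadjusted P = 0.0747, adjusted P = 0.832) by Additional file 2. For Pura the genotype differences were -0.19 in males and -0.066 in females by the labels (interaction -0.13 ± 0.080, SE, limma adjusted P = 0.993) and -0.18 and -0.059 by Additional file 2 (interaction -0.12 ± 0.079, SE, limma adjusted P = 0.869). For Purb they were 0.0022 and -0.056 by the labels and -0.0096 and -0.045 by Additional file 2. Across genotypes, no difference between males and females passed the test, with log2 differences (male minus female) of 0.057 ± 0.084 for Purg, 0.0010 ± 0.042 for Pura and -0.025 ± 0.042 for Purb (SE, limma adjusted P of 0.988, 0.999 and 0.988). Sex passed for 0.0425% of genes by the labels and for 0.0519% by Additional file 2, and with the sexes of Additional file 2 the adjusted P-values of the 3 genes were 1.00. The genotype by sex interaction passed for 0% of genes with either source, with an unadjusted P under 0.05 for 912 genes by the labels and 1320 by Additional file 2.

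**Figure D2:**
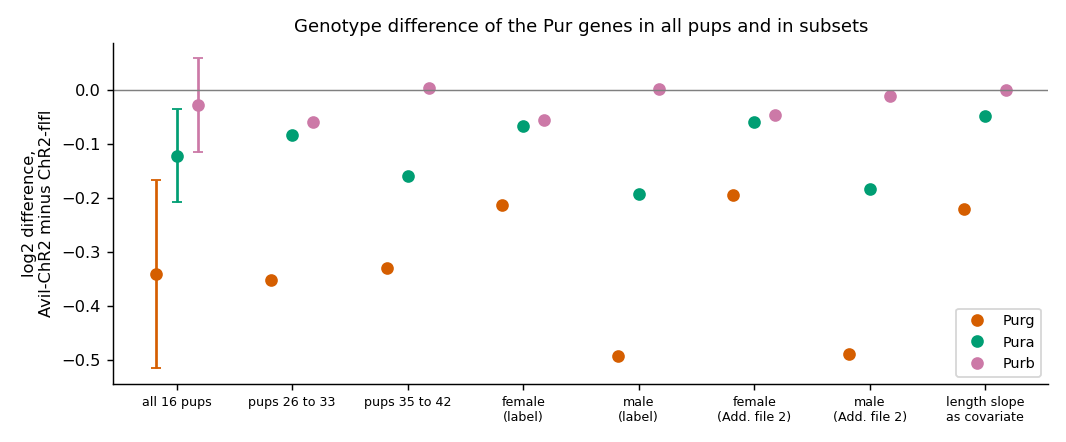
Log2 difference between genotypes (Avil-ChR2 minus ChR2-flfl, y-axis) of the 3 genes in all 16 pups with the 95% interval, in the pup runs, by sex of the labels and of Additional file 2, and with the slope on transcript length as a covariate. Purg is the lowest of the 3 in every setting, from -0.49 in males to -0.19 in females of Additional file 2, and Purb lies between -0.058 and 0.0036. The intervals are a description and no test, because the family was chosen with this comparison in view.

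No gene around Purg passed the genotype test. The table has 16 entries other than Purg that reach into the 500 kb on either side, of which 11 passed the filter. In Avil-ChR2 cortices 8 of the 11 had lower and 3 higher mean log2 values, and 0 had a limma unadjusted P under 0.05, against 5.41% of all genes. The median log2 difference of the 11 genes was -0.054.

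Wrn, which shares the start region with Purg, was 12.9 ± 0.800 CPM in ChR2-flfl and 12.4 ± 0.900 CPM in Avil-ChR2 cortices (SD, n = 8 each). The ChR2-flfl values ranged from 11.8 to 14.5 CPM with a median of 12.8, and the Avil-ChR2 values from 10.9 to 13.7 with a median of 12.2, so that the groups overlapped widely. The log2 difference was -0.054 ± 0.050 (SE, limma adjusted P = 0.954). By run, it was 0.0015 for pups 26 to 33 and -0.11 for pups 35 to 42.

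Ppp2cb, a catalytic subunit of protein phosphatase 2A and the most abundant neighbour, was 120 ± 4.59 and 120 ± 3.65 CPM (log2 difference -0.0039 ± 0.027, SE, limma adjusted P = 0.995). Nrg1, the ligand neuregulin 1, was 46.1 ± 5.39 and 43.1 ± 2.05 CPM, with a log2 difference of -0.091 ± 0.055 (SE, limma adjusted P = 0.942). The other measured neighbours with more than 1 CPM were Gm3985, Tex15, Ubxn8, Gsr, Gtf2e2 and Rbpms, with log2 differences between -0.078 and 0.053. The non-coding entries Gm33281 and Gm33433, at -0.47 and -0.13, were below 1 CPM and had standard errors of 0.35 and 0.25, and Gm33281 had no reads in 3 pups, which were set to the floor of -5. Of the entries that failed the filter, Gm33082, Smim18 and Gm26632 had no reads in any pup, and LOC105243160 and LOC105244967 had reads in 6 and 3 pups.

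**Figure D3:**
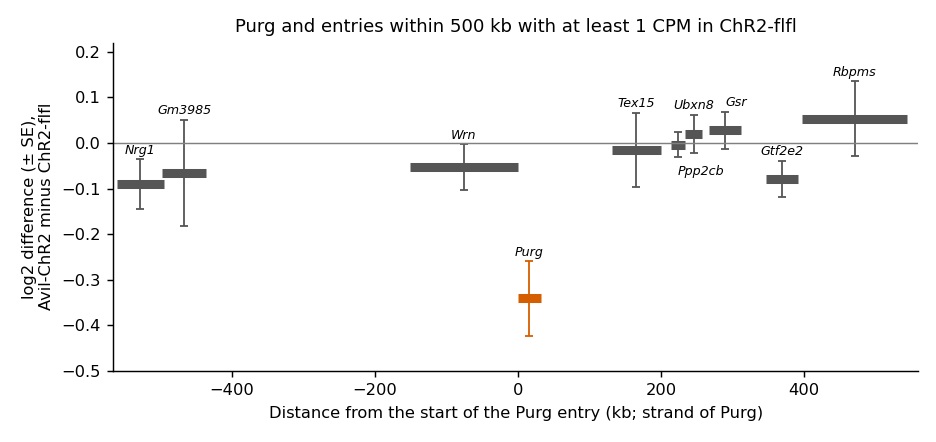
Log2 difference between genotypes (y-axis, Avil-ChR2 minus ChR2-flfl, thin lines ± SE, n = 8 pups per genotype) of Purg and its neighbours against the distance from the start of the Purg range in kb, with thick lines as the gene ranges. Purg lies at -0.34 and the neighbours shown between -0.091 and 0.053. The range of Nrg1 goes on beyond the left edge.

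Pura covers 36280551 to 36291721 on the plus strand of chromosome 18. Its nearest entry is Igip, which lies 8379 bases away on the same strand. Igip was 26.4 ± 3.88 CPM in ChR2-flfl and 23.3 ± 2.39 CPM in Avil-ChR2 cortices (SD, n = 8 each), with a log2 difference of -0.17 ± 0.081 (SE) that did not pass (limma unadjusted P = 0.0504, adjusted P = 0.911). The nearest entry to Purb, H2afv, lies 23155 bases away.

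Next, it was asked whether the 3 genes varied together between pups of the same genotype. Each pup's deviation from the mean log2 value of its genotype was used, and P-values come from 100000 permutations of the pups within genotypes, adjusted over 4 relations. Pura and Purb had a Pearson r of 0.45 (permutation P = 0.102, adjusted P = 0.206) and a Spearman rho of 0.52 (permutation P = 0.0396, adjusted P = 0.158) over the 16 pups. The r was 0.44 without the 2 pups farthest from the median, 0.12 in pups 26 to 33, 0.74 in pups 35 to 42, 0.54 within ChR2-flfl and 0.30 within Avil-ChR2 pups.

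Purg and Pura had a Pearson r of 0.43 (permutation P = 0.155, adjusted P = 0.206) and a Spearman rho of 0.34 (permutation P = 0.208, adjusted P = 0.351). Without ChR2-flfl replicates 1 and 7 the r was 0.28. It was 0.47 and 0.46 in the 2 runs, but 0.65 within ChR2-flfl and -0.25 within Avil-ChR2 pups. Purg and Purb had an r of -0.10 (permutation P = 0.773, adjusted P = 0.773) and a rho of 0.041 (permutation P = 0.888, adjusted P = 0.888). For this pair the r had opposite signs in the runs (-0.61 and 0.71) and was 0.21 without ChR2-flfl replicates 1 and 7, and -0.11 and -0.093 within ChR2-flfl and Avil-ChR2 pups. Purg and Wrn had an r of 0.36 (permutation P = 0.153, adjusted P = 0.206) and a rho of 0.29 (permutation P = 0.263, adjusted P = 0.351). In this pair the r was -0.014 without ChR2-flfl replicates 1 and 7. It was 0.47 and 0.27 in the 2 runs, but 0.78 within ChR2-flfl and -0.47 within Avil-ChR2 pups. No relation passed after the adjustment.

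The genes most like each member differed between members. They were ranked by Pearson r of the deviations over the 16 pups among 15137 genes, which is a description, since the best of many are shown. For Purg they were Nsd1 (r = 0.95), Birc6 (0.95), Smg1 (0.94), Mga (0.93) and Macf1 (0.93). Nsd1 encodes a histone methyltransferase, Birc6 a large inhibitor of apoptosis with ubiquitin ligase activity, Smg1 a kinase of nonsense-mediated decay, Mga a MAX-binding transcription factor and Macf1 a cytoskeletal linker. Their own log2 differences between genotypes lay between -0.21 (Smg1) and -0.099 (Nsd1). All 5 have long transcripts, from 12784 bases in Nsd1 to 23495 in Macf1, whereas the longest annotated transcript of Purg has 1795 bases and the median over genes is 3464. Without ChR2-flfl replicates 1 and 7 the r of these genes with Purg was 0.78 to 0.83.

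For Pura they were Fancm (r = 0.90), Clvs1 (0.90), Gm26782 (0.89), Brwd3 (0.87) and Stxbp5l (0.87), with genotype differences between -0.096 and -0.0073. For Purb they were Spcs3 (r = 0.93), Ndfip1 (0.93), Pcmtd2 (0.92), 2900097C17Rik (0.91) and Fgf12 (0.91), with genotype differences between -0.037 and 0.025. The longest transcripts of these genes had 2513 to 11619 bases in the list of Pura and 3466 to 4915 in that of Purb. Without ChR2-flfl replicates 1 and 7 the r was 0.85 to 0.89 in the list of Pura and 0.81 to 0.91 in that of Purb. Avil-ChR2 replicate 7, the pup with the lowest Pura, stayed in. Over the 16 pups the Spearman rho in the list of Pura was 0.56 (Clvs1) to 0.85 (Stxbp5l), with 0.71 for Fancm. The 3 lists of 5 had no gene in common.

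The deviations of Purg were also set beside those of the other candidate genes of the study, which gives a description only. The study chose the 20 other candidates on these pups. In limma 0 of these 20 passed the adjustment for genotype, which 2 of all 21183 genes did (0.00944%). By their mean log2 values 17 were lower in Avil-ChR2 cortices, and all 17 had a positive r with Purg over the deviations of the 16 pups. The r ranged from 0.36 (Atf7) to 0.92 (Slc8a1, the sodium/calcium exchanger 1) with a median of 0.81, whereas the median r of Purg with the 15137 genes was -0.026. These values rest largely on ChR2-flfl replicates 1 and 7. Without these pups the median r of the 17 genes was 0.45, from -0.25 (Atf7) to 0.80 (Grin2b), with a positive r for 15 of 17. Over all 16 pups, Grin2b, an NMDA receptor subunit, had an r of 0.92, Herc1, a large ubiquitin ligase, 0.91, and Cacna1e, a voltage-gated calcium channel, 0.91. The long non-coding RNA Malat1 had an r of 0.76. With Pura the median r of the 17 genes was 0.33, and with Purb it was -0.089 with a positive r for 6 of 17. Without both pups the medians were 0.22 for Pura and 0.34 for Purb. The longest transcripts of the 17 genes had a median of 12811 bases. The 3 candidates that were higher in Avil-ChR2 cortices, Hsd17b11, Slc8b1 and Tac2, had an r with Purg of -0.56, -0.46 and -0.53.

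ChR2-flfl replicates 1 and 7 were high in Purg and in the mean of these genes. In ChR2-flfl replicate 1, Purg was 0.42 above its genotype mean on the log2 scale and the mean of the 17 candidates 0.26 above. In ChR2-flfl replicate 7 it was 0.34 and 0.17, and in ChR2-flfl replicate 3, the pup with the fewest reads, -0.23 and -0.18. Pups with a low Purg but values of the candidates nearer to the mean were ChR2-flfl replicate 5, at -0.25 and -0.054, and Avil-ChR2 replicate 6, at -0.17 and -0.047. Pura was -0.012 from its mean in ChR2-flfl replicate 1 and 0.18 in replicate 7, and Purb was -0.19 and 0.13.

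**Figure D4:**
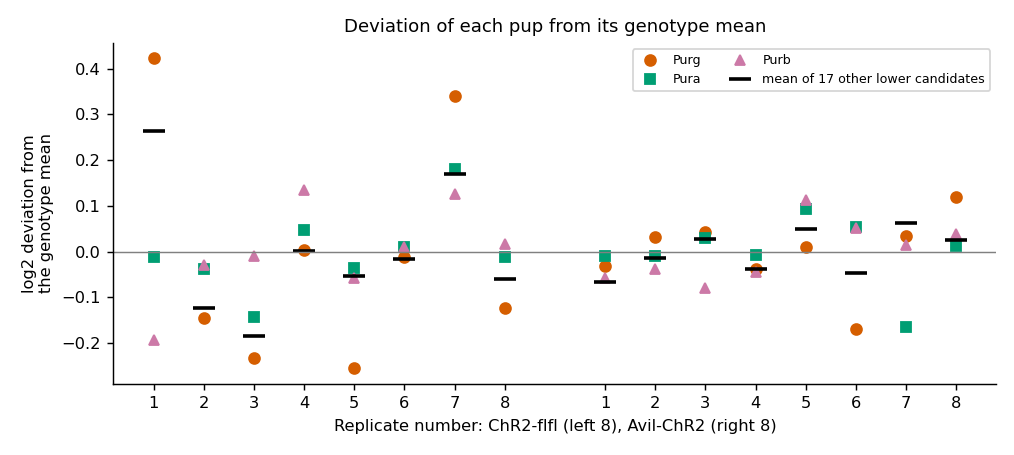
Deviation of Purg, Pura, Purb and the mean of 17 other candidates that were lower in Avil-ChR2 from the genotype mean (log2, y-axis) for each pup (x-axis, replicate number). ChR2-flfl replicates 1 and 7 are highest for Purg, at 0.42 and 0.34, and for the candidates, at 0.26 and 0.17, while Purb is at -0.19 in replicate 1.

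The dependence of the values on transcript length differed between pups. The slope of the log2 values on the log2 transcript length, taken over genes in each pup, was 0.756 ± 0.0204 in ChR2-flfl and 0.737 ± 0.0101 in Avil-ChR2 pups (SD, n = 8 each). It was highest in ChR2-flfl replicates 7, 6 and 1, with 0.780, 0.773 and 0.771. Replicates 7 and 1 had the highest Purg, but in replicate 6 Purg was at -0.011 from its genotype mean. In Avil-ChR2 pups the slope was highest in replicate 6, with 0.754, which had the lowest Purg of all pups. Over the 8 pups of a group, the Pearson r of Purg with the slope was 0.73 in ChR2-flfl (exact permutation P = 0.0428, adjusted P = 0.0856 over 6 relations, rho 0.79, exact permutation P = 0.0279, adjusted P = 0.0559) and -0.51 in Avil-ChR2 (exact permutation P = 0.203, adjusted P = 0.243, rho -0.26, exact permutation P = 0.536, adjusted P = 0.536). Without the 2 pups with the slopes farthest from the median, it was 0.81 and 0.31. For Pura the r was 0.76 in ChR2-flfl (exact permutation P = 0.0177, adjusted P = 0.0531, rho 0.86, exact permutation P = 0.0107, adjusted P = 0.0461). In Avil-ChR2 it was 0.80 (exact permutation P = 0.0116, adjusted P = 0.0531, rho 0.83, exact permutation P = 0.0154, adjusted P = 0.0461), and without 2 pups it was 0.72 and 0.81. For Purb the r was 0.18 (exact permutation P = 0.671, adjusted P = 0.671, rho 0.38, exact permutation P = 0.360, adjusted P = 0.432) and 0.61 (exact permutation P = 0.116, adjusted P = 0.174, rho 0.50, exact permutation P = 0.216, adjusted P = 0.324), and without 2 pups 0.17 and -0.24. All P-values are two-sided. When the slope was added as a covariate, the log2 difference between genotypes was -0.22 ± 0.083 for Purg and -0.047 ± 0.035 for Pura (SE). Transcript integrity of the samples was not analysed here.

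The markers fit cortex, and the summed levels of cell types were similar in both groups. The 5 genes of excitatory neurons, with Slc17a7 as the most abundant, summed to 1179 ± 36.4 CPM in ChR2-flfl and 1213 ± 26.3 CPM in Avil-ChR2 pups (SD, n = 8 each). Slc17a7, the vesicular glutamate transporter 1, was higher by 0.11 on the log2 scale (limma unadjusted P = 0.0304, adjusted P = 0.884). The 3 genes of inhibitory neurons summed to 201 ± 8.46 and 207 ± 9.63 CPM, the 4 astrocyte genes to 655 ± 56.8 and 686 ± 33.1, and the 4 genes of the oligodendrocyte lineage to 235 ± 24.4 and 239 ± 20.1.

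Markers of other sources were low or alike. The 4 microglia genes summed to 63.4 ± 9.26 and 65.5 ± 5.40 CPM, with P2ry12 at 0 in all pups, and the 3 endothelial genes to 95.5 ± 4.55 and 96.9 ± 5.54. The 4 blood genes summed to 306 ± 72.1 and 282 ± 43.4 CPM. The 3 genes of sensory neurons, in which Cre was meant to act, summed to 3.42 ± 0.343 and 3.71 ± 0.362 CPM. Avil itself was at 1.07 CPM in ChR2-flfl and 39.7 CPM in Avil-ChR2 cortices. Which cells its reads came from was not tested. The 3 striatal genes summed to 35.7 ± 7.05 and 36.8 ± 10.2, the 2 thalamic genes to 26.6 ± 1.44 and 26.7 ± 1.40, and the 3 genes of muscle and bone to 7.97 ± 0.917 and 8.33 ± 0.673. The 3 choroid plexus genes summed to at most 1.3 CPM in any pup. Kcnj13 was listed at 0 in all pups, but it lies inside the entry Gigyf2, so that this 0 does not show a low level, and the same holds for P2ry12 inside Med12l. The most abundant of them, Ttr, whose range also overlaps that of another entry, was at 0.118 CPM in ChR2-flfl and 0.319 CPM in Avil-ChR2 pups, with 0 in 2 pups (log2 difference 1.33, limma unadjusted P = 0.0491, adjusted P = 0.911).

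The controls with the highest Purg also had the lowest sums of the controls for several cell types. ChR2-flfl replicate 1 was lowest of the controls for inhibitory neurons (189 CPM), astrocytes (579 CPM) and microglia (45.7 CPM). Its excitatory sum was 1162 CPM and its thalamic sum of 28.4 CPM the highest of the controls. ChR2-flfl replicate 7 was lowest for excitatory neurons (1105 CPM), the oligodendrocyte lineage (208 CPM), blood (227 CPM), striatum (24.6 CPM) and choroid plexus (0 CPM). The part of the cell types in the Purg values was not tested.

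The molecules with which Pur proteins work were taken from 4 lists. Of the 50 listed genes 47 were tested, of which 25 had a lower and 22 a higher mean log2 value in Avil-ChR2 pups, and lower values were found for 48.6% of all genes. At a limma unadjusted P under 0.05, 2 were lower and 0 higher (4.26%), which is near the 5.41% of all genes (3.46% lower and 1.95% higher), and 0 passed the adjustment, which 2 of all 21183 genes did (0.00944%). The median log2 difference of the listed genes was -0.00071.

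The RNA transport granule list holds kinesin-1 heavy chains and granule proteins that purify with Pur-alpha. Of its 22 genes 20 were tested, with 11 lower and 9 higher, and 0 had a limma unadjusted P under 0.05. Their log2 differences ranged from -0.081 to 0.027 with a median of -0.0065. Kif5c, a kinesin-1 motor of neurons and the most abundant, was 1114 ± 39.2 in ChR2-flfl and 1110 ± 43.9 CPM in Avil-ChR2 cortices. Fmr1, the fragile X protein gene, had a log2 difference of -0.032 ± 0.049, and the double-stranded RNA binding Staufen genes Stau1 and Stau2 had 0.0019 ± 0.024 and 0.011 ± 0.027 (SE).

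The list of RNAs that are carried into dendrites had 8 genes tested, with 5 lower, 3 higher and a median of -0.067. Map1b, a microtubule-associated protein of growing neurites and the most abundant of the list, was 3309 ± 363 CPM in ChR2-flfl and 2987 ± 93.0 CPM in Avil-ChR2 cortices (SD, n = 8 each). Its log2 difference was -0.14 ± 0.053 (SE, limma unadjusted P = 0.0151, adjusted P = 0.833). Map2, which marks dendrites, was 1875 ± 113 and 1775 ± 55.3 CPM, with a log2 difference of -0.077 ± 0.035 (SE, limma unadjusted P = 0.0403, adjusted P = 0.908). Both had the larger spread in ChR2-flfl pups. With the length slope as a covariate their log2 differences were -0.059 and -0.0075. The non-coding RNA Bc1, a known partner of Pur proteins in dendrites, was at 155 ± 88.7 and 104 ± 32.0 CPM, with a log2 difference of -0.38 ± 0.32 (SE, limma adjusted P = 0.952). Arc and Camk2a had log2 differences of 0.19 ± 0.10 and 0.096 ± 0.067 (SE, limma adjusted P of 0.927 and 0.945).

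The list of partners in transcription and cell cycle had 12 genes tested, 6 lower and 6 higher, with a median of 0.0035, and 0 had a limma unadjusted P under 0.05. Ybx1, the Y-box protein that binds together with Pur-alpha and the most abundant of the list, had a log2 difference of -0.0074 ± 0.021 (SE).

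Of the 8 described promoter targets of Pur proteins 7 were tested, with 3 lower and 4 higher, a median of 0.026 and 0 at a limma unadjusted P under 0.05. App, the amyloid precursor protein gene and the most abundant, was 1263 ± 61.5 and 1284 ± 25.4 CPM. The log2 differences ranged from -0.24 (Myh6) to 0.21 (Acta2), and Mbp, the myelin basic protein gene, had 0.058 ± 0.094 (SE).

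**Figure D5:**
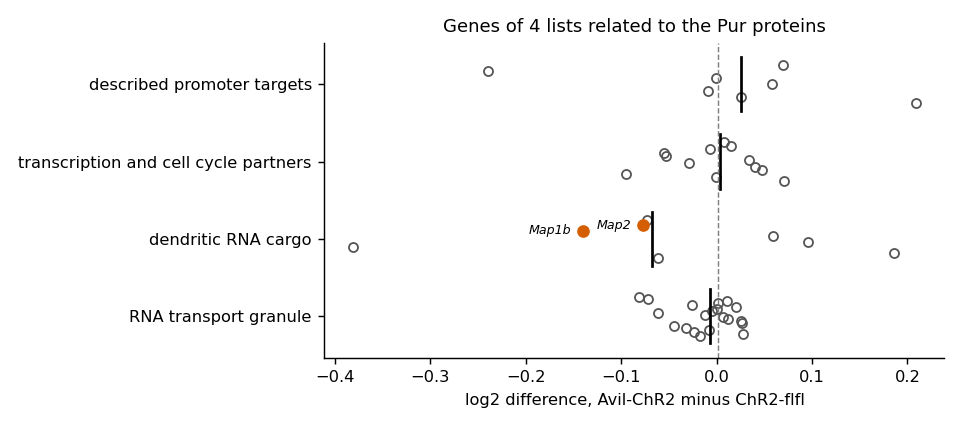
Log2 difference between genotypes (x-axis, Avil-ChR2 minus ChR2-flfl) of 47 genes in 4 lists of molecules linked to Pur proteins, with filled points for a limma unadjusted P under 0.05, black lines for the list medians and a dashed line for the median of all genes tested. The filled points are Map1b and Map2, at -0.14 and -0.077.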

How the data were processed

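Total RNA of P7 cortices was sequenced with Illumina TruSeq stranded mRNA libraries. The authors removed adapters, kept reads from 50 bp on, used SeqMan NGen for alignment to GRCm38 (mm10) and ArrayStar for the counts per gene, and deposited normalized reads, which are CPM scaled with the TMM factors of edgeR, with 1 column per pup. Reads per pup were recovered from the step of 1 read, with 100% of the values up to 20000 reads whole within 0.05. Depth sets the counting error, and its other effects on the values were not tested.

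CPM were log2 transformed without pseudocount, with missing values and values below -5 set to -5 (4432 of 338928 values). Genes with at least 12 of 16 values above -5 were kept. Tests used lmFit and eBayes with trend of limma 3.58.1 (R 4.3.3), with Benjamini-Hochberg adjustment over 21183 genes, and were tested on simulated data. Permutations used numpy. Transcripts are from GENCODE M21 (GRCm38), and lengths were found for 82.5% of the genes tested.

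The members, lists and tests were chosen with earlier results of these data known, and 1 listed gene is not reported here. Genes named are the members, the entries within 500 kb of Purg, of each list the most abundant gene and those at an unadjusted P under 0.05, the 5 genes most like each member, the 21 candidates and the label checks. P2ry12, Med12l, Kcnj13, Gigyf2, Gm11973, Gm22123, Tsix, Fmr1, Stau1, Stau2, Bc1, Arc, Camk2a, Myh6, Acta2, Mbp, Igip and H2afv were named in addition, after their values were seen. Alternatives were other filters, transformations, scalings and covariates, each pup left out in turn, and each run alone. Correlations with other genes and the spread were also given without ChR2-flfl replicates 1 and 7, which was chosen after seeing the data.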

Additional observations from a re-analysis of the deposited data

Results flagged for a closer look

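Within groups of 8 pups, a pup was marked when its gap to the nearest other pup took a larger part of the whole range than Dixon's 95% critical value. Of 112 groups tested 9 had such a pup, and chance marks about 1 in 20. Pura was lowest in Avil-ChR2 replicate 7 with 49.9 CPM, where the next pup had 55.5, and Fancm, the gene most like Pura, was lowest in the same pup with 13.5 CPM. In this pup Avil was highest with 46.4 CPM.

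Near Purg, Nrg1 was highest in ChR2-flfl replicate 1 with 58.5 CPM, the pup with the highest Purg, and the candidate Cacna1d was highest there too with 134 CPM. Tex15 was highest in ChR2-flfl replicate 8 with 5.005 CPM and in Avil-ChR2 replicate 5 with 4.78 CPM. The reads per pup were lowest in ChR2-flfl replicate 3 with 30549126 and in Avil-ChR2 replicate 4 with 47791532.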

How the results depend on the processing

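The genotype differences of Purg and Pura stayed negative in 12 alternatives and with each of the 16 pups left out. Purg ranged from -0.38 (without ChR2-flfl replicate 5) to -0.22 (length slope as covariate), and Pura from -0.16 to -0.047. For Purg, pups were left out only 1 at a time, and its difference without both ChR2-flfl replicates 1 and 7 is not given. Purb lay between -0.058 and 0.0036. The 2 genes called between genotypes became 1 under median centring, with the length slope, in pups 26 to 33, in pups 35 to 42 and with the replicate number as a block. They were 1 to 2 with a pup left out and 3 with the run as covariate. The cause was not tested. The 2 listed genes at an unadjusted P under 0.05 became 1 with log2(value + 1), quantile normalization, median centring, the length slope and in pups 26 to 33. With a pup left out they were 1 to 7. They were 7 without ChR2-flfl replicate 5, 6 without ChR2-flfl replicate 2 and 5 without Avil-ChR2 replicate 2. Without ChR2-flfl replicates 6, 7 or 8 or Avil-ChR2 replicates 3, 7 or 8 they were 1. The share of all genes at this P in these settings is not given here, so that nothing about the lists is read from these counts. Wrn was 0.0082 with the length slope, 0.0015 in pups 26 to 33 and between -0.074 and -0.027 with a pup left out.

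Some small differences by run and sex changed sign without passing the test. With a pup left out, the run difference lay between -0.067 and 0.051 for Purg, 0.010 and 0.063 for Pura, and 0.055 and 0.11 for Purb. The sex differences then lay between -0.0060 and 0.10 for Purg, -0.028 and 0.035 for Pura, and -0.047 and 0.0035 for Purb. The sex difference of Pura was -0.00060 with the sexes of Additional file 2 and -0.015 with the run added. With the replicate number as a block, the sex difference was -0.23 for Purg and -0.037 for Pura. The replicate numbers do not pair the pups, since the correlations of same-numbered pups were -0.34 to 0.39, and 3 of 8 were over 0.1. The run could not be tested with the block, because each number belongs to 1 run. A count test on recovered reads was not run.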
